A study of Homo sapiens with 6 samples.

Results

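The regions described here are the stretches of the human genome that 3 peak lists from K562 cells all marked as sites of active transcription initiation. Peaks of the lists on chromosomes 1 to 22 and X were joined wherever they overlapped by at least 1 bp, and a joined region was kept when it held at least 1 peak from each list. This gave 11852 regions of 34308 joined regions in all, or 34.5%. The regions were chosen by the deposited peak calls themselves, so that the scores, widths and peak counts given below are descriptions and carry no test.

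K562 is an established human leukaemia line that carries the BCR-ABL1 fusion; its 6 libraries came from untreated cells, in 3 groups of 2 biological replicates grown at least 3 passages apart. The group called PRO-seq 1M used the published precision run-on protocol on 1M permeabilized cells per library, with 3 affinity purifications and 11 cycles of PCR. The group called qPRO-seq 1M used a quick protocol with 1 affinity purification on the same input and the same number of cycles. The group called qPRO-seq 250k used the quick protocol on 250k cells per library with 14 cycles. Each group had 1 list, named in the labels for both replicates, so no spread between replicates could be set against any difference below. The lists hold no read counts, and the depth behind them is unknown.

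In a run-on experiment, polymerases already engaged on DNA extend their RNA by a labelled nucleotide, so that the RNA marks where transcription is under way. Active promoters and active enhancers both start short transcripts in both directions, and the dREG classifier looks for that pattern of reads on both strands. Promoters of genes used by nearly all cells tend to be rich in G, C and the dinucleotide CpG, and many are bound by ETS factors, NRF1, YY1 or CREB and ATF factors, whereas the GATA factors are master regulators of red cells and platelet precursors.

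Most of these regions lay at annotated promoters. Printed first are 4 promoter stretches with motifs that were more frequent at these regions, over windows of 300 bases. A stretch of ALAS2, an erythroid gene with a GATA motif there, is added. Each of the 4 belongs to the region with the highest score among promoters holding the ETS, NRF1, CRE or YY1 motif. Letters are the RefSeq reference of build GRCh38.p14, 5′ to 3′ on the strand of the gene. Capitals mark the motif matches, read as the motif or as its reverse complement. In LAMTOR1, which encodes a subunit of the lysosomal Ragulator complex, chr11:72103388-72103537 on the minus strand holds an ETS motif 99 to 93 bases before the RefSeq start and an E-box 165 to 160 bases before it. The stretch of RAPGEF6, an exchange factor for Rap GTPases, is chr5:131635237-131635386 on the minus strand, with overlapping NRF1 motifs at 34 to 27 and 32 to 25 bases, on opposite strands, and a CGCG element 154 to 147 bases before the start. In ZDHHC7, a palmitoyltransferase gene, chr16:85011536-85011685 on the minus strand has a cyclic AMP response element (CRE) 25 to 18 bases before the start. The stretch of MED18, a Mediator subunit, is chr1:28328852-28329001 on the plus strand, with a YY1 motif at 158 to 150 bases and overlapping NRF1 motifs at 127 to 120 and 125 to 118 bases before the start. ALAS2, the erythroid enzyme of the first step of heme synthesis, has a GATA motif 127 to 122 bases before its start in chrX:55031065-55031214 on the minus strand.
LAMTOR1: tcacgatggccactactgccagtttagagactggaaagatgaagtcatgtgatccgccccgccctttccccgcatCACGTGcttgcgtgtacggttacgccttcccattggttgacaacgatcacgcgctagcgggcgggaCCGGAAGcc
RAPGEF6: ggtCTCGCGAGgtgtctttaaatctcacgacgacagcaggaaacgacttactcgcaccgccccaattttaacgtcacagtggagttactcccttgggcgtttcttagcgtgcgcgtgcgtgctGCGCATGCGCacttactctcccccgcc
ZDHHC7: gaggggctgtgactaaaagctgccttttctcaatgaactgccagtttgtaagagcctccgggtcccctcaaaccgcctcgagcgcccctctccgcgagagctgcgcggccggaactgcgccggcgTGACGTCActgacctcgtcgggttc
MED18: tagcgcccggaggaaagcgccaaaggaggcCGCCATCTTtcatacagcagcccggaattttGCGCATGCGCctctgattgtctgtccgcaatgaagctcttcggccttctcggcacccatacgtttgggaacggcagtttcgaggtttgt
ALAS2: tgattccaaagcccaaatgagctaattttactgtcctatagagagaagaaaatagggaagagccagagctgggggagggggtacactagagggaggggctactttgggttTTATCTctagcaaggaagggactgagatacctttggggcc

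All 5 stretches lie in regions called in the 3 lists. Stretches of 150 bases at the called promoters of GATA1, TAL1, KLF1, GFI1B and MYB held no GATA motif. The highest region score of a promoter with a GATA motif was 99.3, at MOB4. The ETS motif was searched as CCGGAAG, NRF1 as GCATGCGC, CRE as TGACGTCA, YY1 as AAGATGGCG, the CGCG element as CTCGCGAG, GATA as AGATAA and the E-box as CACGTG, always on both strands. A match is a run of letters and not evidence of binding.

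Regions were then placed on the GENCODE annotation. Regions with a GENCODE transcript start at most 500 bp away are called start-near, and the others distal. Start-near regions made up 9113 of the 11852 (76.9%, 95% Wilson interval 76.1 to 77.6). Intergenic regions numbered 1366 (11.5%), intronic regions 1092 (9.21%) and regions over an exon away from a start 281 (2.37%). The intervals cover counting error alone, and neighbouring regions are not independent.

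Regions shared by all lists were more often promoters than those that dropped out of a list. Of the 6289 regions called in both 1M lists and not at 250k, 51.2% were start-near, a difference of 25.7 percentage points (Newcombe 95% interval 24.3 to 27.2). Of the 12700 regions called by qPRO-seq 1M alone, 26.2% were start-near, a difference of 50.7 points (49.6 to 51.7). Intronic elements had the opposite order, with shares of 9.21%, 21.9% and 36.5% in the same 3 classes. Since score and position can go together, the shares were also compared within deciles of the qPRO-seq 1M score. The differences, averaged over deciles, were then 28.5 points (26.2 to 30.7) and 49.8 points (46.2 to 52.2). They varied with score. Against both 1M lists only, the difference was 12.8 points in the lowest decile and 38.1 in the highest. Against qPRO-seq 1M alone it was 33.5 and 63.2 points. The top decile held 14 regions of qPRO-seq 1M alone. The plot of positions by class shows the same shares.

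**Figure D1:**
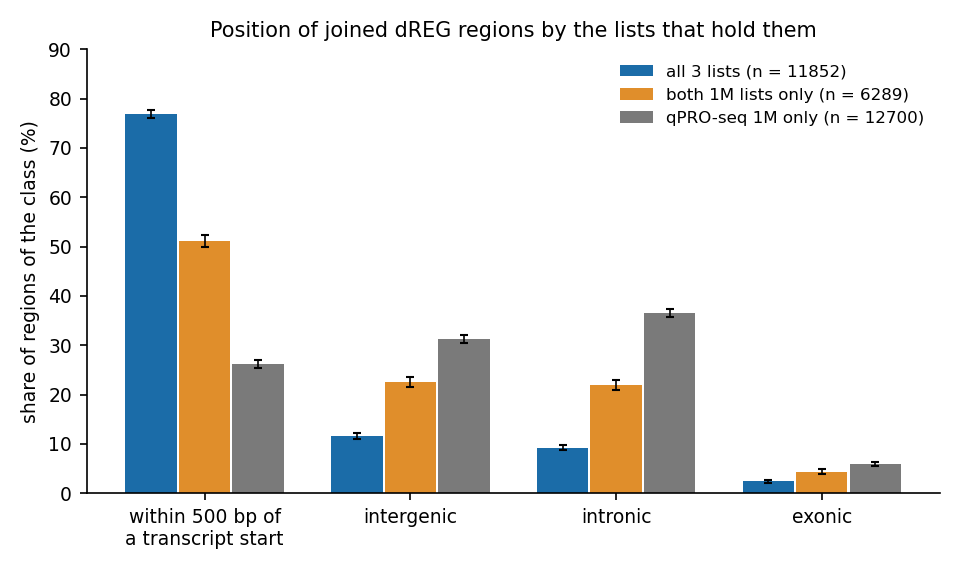
Share of joined regions (%) at annotated transcript starts, in exons, in introns and between genes, for regions of all 3 lists, of both 1M lists only and of qPRO-seq 1M only. Start-near regions made up 76.9% of the first class, 51.2% of the second and 26.2% of the third.

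The regions were compact. Their width had a median of 780 bp, with quartiles of 610 and 1040 bp and a range of 160 to 2900 bp. The median was 530 bp for regions of both 1M lists only and 370 bp for regions of qPRO-seq 1M alone, and a region joined from more lists is wider by construction. A single peak per list made up 6696 regions (56.5%). Peak centres lay close together: in these regions, 89.3% of the centres in the 1M lists were within 100 bp of each other, and over all 11852 regions the centres of the top peaks were so in 82.3%. The widest region, of 2900 bp at chr5:10248311-10251210, covered the starts of FAM173B and CCT5, a subunit of the cytosolic chaperonin, with 6 peaks in the PRO-seq 1M list and 5 in each of the quick lists. The region at SOCS2, an inhibitor of cytokine signalling induced by STAT5, held 7, 5 and 5 peaks.

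Each region was described by the percentile of its top peak among all peaks of the same list, since scores of different lists have no common scale. The median percentile was 74.1 in PRO-seq 1M, 82.1 in qPRO-seq 1M and 59.6 in qPRO-seq 250k. These values depend on the length of each list and show no change between protocols. Start-near regions had medians of 77.8, 82.8 and 64.0, and intronic regions 53.4, 78.2 and 39.6. Intronic regions thus ranked near promoters in qPRO-seq 1M and well below them in the other lists. The mean of the 3 percentiles is called the region score below. A total of 6532 regions (55.1%) reached the median score in all lists, and 652 (5.50%) stayed below it in all of them. The top 10% of every list was reached by 908 regions, of which 820 (90.3%) were start-near. The plot of percentiles by position shows these spreads.

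**Figure D2:**
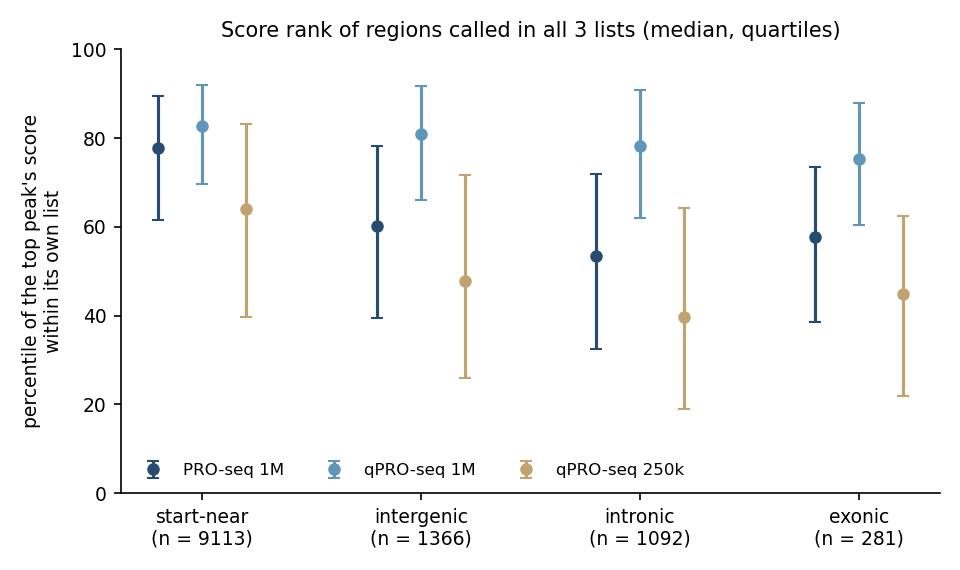
Percentile of each region's top peak within its own list (0 to 100), by list and by position of the region. Start-near medians lay at 77.8, 82.8 and 64.0, and intronic medians at 53.4, 78.2 and 39.6.

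The rule itself rested on wide overlaps. The overlap that linked the lists had a median of 410 bp and a minimum of 10 bp, and 2 regions were linked by 20 bp or less. In 44 regions some pair of lists shared no base directly. Just outside the rule, 138 regions of both 1M lists had a qPRO-seq 250k peak within 20 bp.

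Start-near regions mostly belonged to protein-coding genes. A protein-coding start was near 8415 of the 9113 start-near regions (92.3%), against 87.8% in regions of both 1M lists only (difference 4.49 points, 3.27 to 5.78) and 78.2% in regions of qPRO-seq 1M alone (difference 14.2 points, 12.7 to 15.7). Long noncoding RNA starts with no protein-coding one made up 474, pseudogenes and other kinds 146, and small RNA genes 67. In 1361 regions the starts of exactly 2 protein-coding genes were near, and in 1151 of these (84.6%) the genes lay on opposite strands. Such paired promoters had a median width of 900 bp and a median region score of 76.6, against 790 bp and 73.5 for regions with 1 protein-coding gene.

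Counted by gene, 8583 of 19864 protein-coding genes (43.2%) had a start within 500 bp of a region called in all lists. Another 1518 had a region of both 1M lists at best and 626 one of qPRO-seq 1M alone, while 8644 had none in any list. Most called genes, 7324, had 1 such region. A further 1159 genes had 2 regions and 100 had 3 or more, and whether these lay at different starts of a gene was not counted. JMJD1C, a gene for a histone demethylase family protein, had 5. GCLC, which encodes the catalytic subunit of the enzyme that limits glutathione synthesis, and TNPO1, a nuclear import receptor, had 4 each.

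Of the 10 start-near regions with the highest scores, 2 lay at replication-dependent histone genes and 1 at a ribosomal protein gene. PDXK, the kinase that makes the active form of vitamin B6, led with chr21:43728131-43729100, whose peaks scored 1.42 in PRO-seq 1M, 1.45 in qPRO-seq 1M and 1.27 in qPRO-seq 250k. RAPGEF6 followed with 1.43, 1.43 and 1.22 at chr5:131635051-131636510. The next 8 lay at the histone gene HIST1H4C, VWDE, the HSP90 co-chaperone gene CHORDC1, the histone pair HIST1H2AK and HIST1H2BN, RCC1 (the exchange factor of Ran), the pair NKIRAS1 and RPL15, COA6 (cytochrome c oxidase assembly) and NUDC. At the other end, the start-near regions of C22orf15, SBDS with TYW1, GUSB and E2F4 had region scores of 3.82, 6.28, 7.38 and 8.57.

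Gene lists are read against the background of 43.2% called among all protein-coding genes. The lists were chosen with results of these data known, and their counts are descriptions. A gene with several called regions is given by the one with the highest region score, unless another is named. The median region score over all called genes was 77.0. In the plot of gene lists, sets used by every dividing cell lie to the right of the background and markers of other tissues to its left, while the intervals of the globin list and of the red cell membrane and iron list include it. With peaks at or above the median score only, 29.5% of all protein-coding genes were called, and several counts given below fell by more than 1.5 times. Heme synthesis then had 6 of 11, erythroid and megakaryocytic factors 7 of 21, red cell membrane and iron genes 7 of 20, globins 2 of 10, BCR-ABL1 signalling 8 of 17, numbered zinc fingers 171 of 509, HOX genes 1 of 39 and lymphoid markers 1 of 18. The shares of the red cell factors, membrane genes, globins and zinc fingers were thus much nearer to the background than those of the ribosomal proteins, with 55 of 84.

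**Figure D3:**
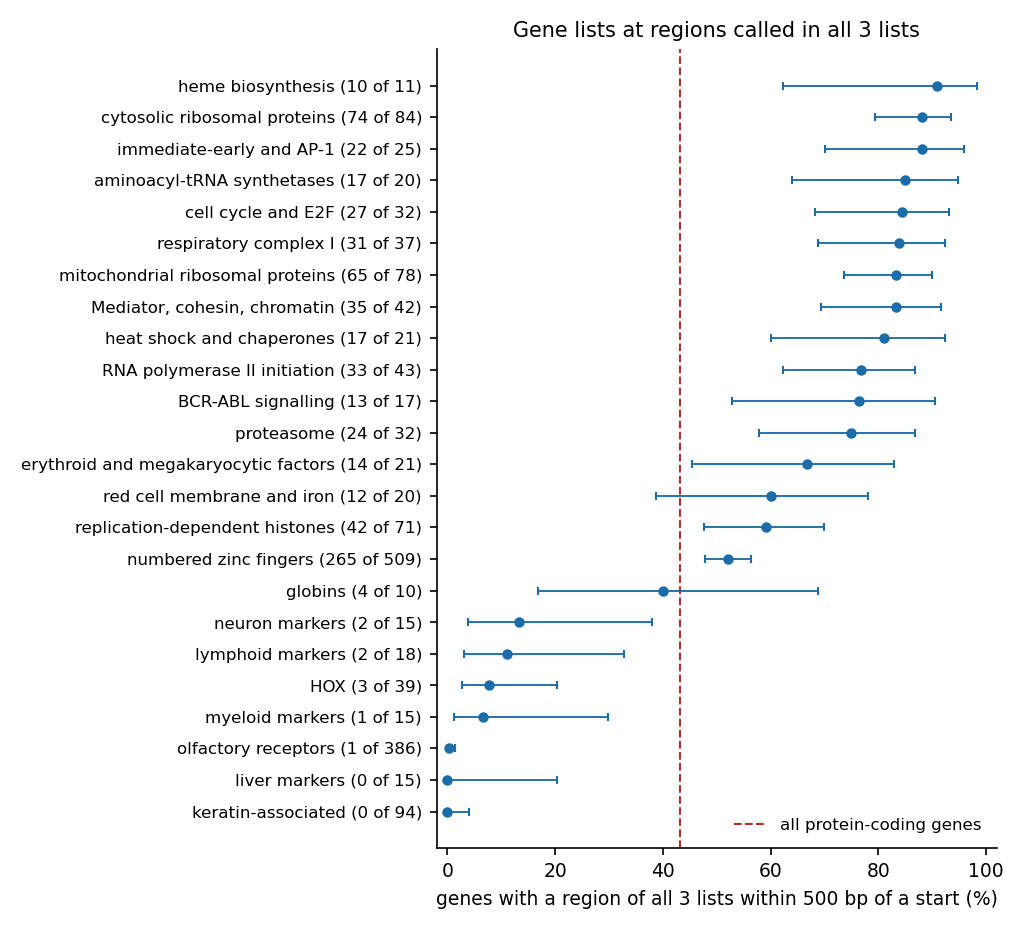
Share of protein-coding genes of each list (%) with a start within 500 bp of a region called in all 3 lists, with 95% Wilson intervals. The line marks the 43.2% of all protein-coding genes, and the lists run from 90.9% for heme synthesis to 0% for liver markers and keratin-associated proteins.

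Most genes of the translation machinery were called. Cytosolic ribosomal proteins had 74 of 84 genes called, with a median region score of 80.3. The highest was RPL15 at 99.8, in a region shared with NKIRAS1, and RPL36AL was lowest at 16.6. Among aminoacyl-tRNA synthetases, which load amino acids onto tRNA, 17 of 20 genes were called with a median of 90.2; GARS (98.8), IARS (97.6) and TARS (96.6) led, QARS was called in both 1M lists only, and CARS and VARS had no region. Mitochondrial ribosomal proteins had 65 of 78 genes called and respiratory complex I had 31 of 37.

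Genes of protein folding, protein breakdown and transcription had similar shares. Heat shock and chaperone genes had 17 of 21 called, with a median region score of 89.8. HSPD1, the mitochondrial chaperonin, had 99.3 in a region shared with MOB4, and HSPA4 and HSPH1, cytosolic chaperones, had 98.7 and 98.6. The stress-induced HSPA1A and HSPA1B, which are near-identical copies, had no region in any list. The proteasome had 24 of 32 genes called, led by PSMD14 at 99.7, and the list of RNA polymerase II subunits and initiation factors had 33 of 43, led by TAF13 at 98.5. Mediator, cohesin and chromatin genes had 35 of 42, with STAG2, a cohesin subunit, at 99.5.

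Cell division genes were called in 27 of 32 cases. CCNB1 (96.8) and CDK1 (91.1), which drive mitosis, the S-phase transcription factor gene E2F2 (96.5) and the growth inhibitors RB1 (94.9) and CDKN1A (94.1) all had region scores above the median of called genes. CDKN2A and CDKN2B, both cyclin-dependent kinase inhibitors, had no region in any list. Replication-dependent histone genes, expressed in S phase, had 42 of 71 called with a median of 97.3, the highest median of the lists in the plot. Histone genes are near-identical copies in clusters, so their calls depend on how reads were assigned to copies.

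Immediate early genes, which encode AP-1 subunits and other rapidly induced regulators, had 22 of 25 called. From here on, 3 percentiles in a row stand for the published protocol, the quick protocol at 1M and the quick protocol at 250k, in that order. JUN stood at percentiles of 99.8, 97.2 and 93.0, and FOS at 56.1, 45.9 and 40.6. JUN was thus near the top of every list and its partner FOS near the middle. The stress regulators IER5 (98.6) and ATF3 (97.9) had the highest region scores of the list. EGR2 was called by qPRO-seq 1M alone, and EGR4 and IER3 had no region.

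Genes of the red cell programme were called at widely different ranks. Of the 11 genes for heme synthesis and its mitochondrial carriers, 10 were called. CPOX, an enzyme late in the pathway, had percentiles of 92.3, 97.5 and 98.3. The housekeeping isozyme ALAS1 had 83.8, 93.7 and 97.3, and the erythroid isozyme ALAS2 had 67.0, 69.5 and 48.5. PPOX, the enzyme after CPOX, had 29.8, 43.6 and 9.74. The first enzyme of the pathway thus had the higher percentile at its housekeeping gene in every list. FECH, which inserts the iron, had a peak in PRO-seq 1M only.

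Of 21 erythroid and megakaryocytic factors, 14 were called, with a median region score of 69.4. SOX6, a repressor of embryonic globin, had percentiles of 97.7, 98.2 and 83.6 in a region shared with the C11orf58 start. GFI1B, a repressor needed for red cells and platelets, had 98.4, 74.8 and 81.8 in a region shared with the TSC1 start. MYB, a factor of blood progenitors, had 78.2, 92.1 and 51.9 in chr6:135180201-135181000. These values were in the upper part of the lists, except for MYB at 250k, but those of SOX6 and GFI1B belong to shared regions. The other called region of MYB, chr6:135181021-135181530, covers the annotated gene start and had 75.4, 56.6 and 13.8. GATA1, the master regulator of red cells, had 53.1, 46.9 and 37.5 at chrX:48786131-48786840. KLF1, an activator of red cell genes, had 43.3, 63.1 and 29.4, and GATA2, the factor of earlier progenitors, had 60.9, 65.5 and 8.15. These 3 regulators had region scores of 45.8, 45.3 and 44.9, below the median of called genes. TAL1, their partner, was higher with 94.1, 74.0 and 39.6. LMO2, CBFA2T3 and ZFPM1 were called in both 1M lists only, LIN28B in both quick lists only, and BCL11A, FLI1 and HMGA2 in none. The plot of erythroid factors and heme genes gives the 3 percentiles of each gene drawn.

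**Figure D4:**
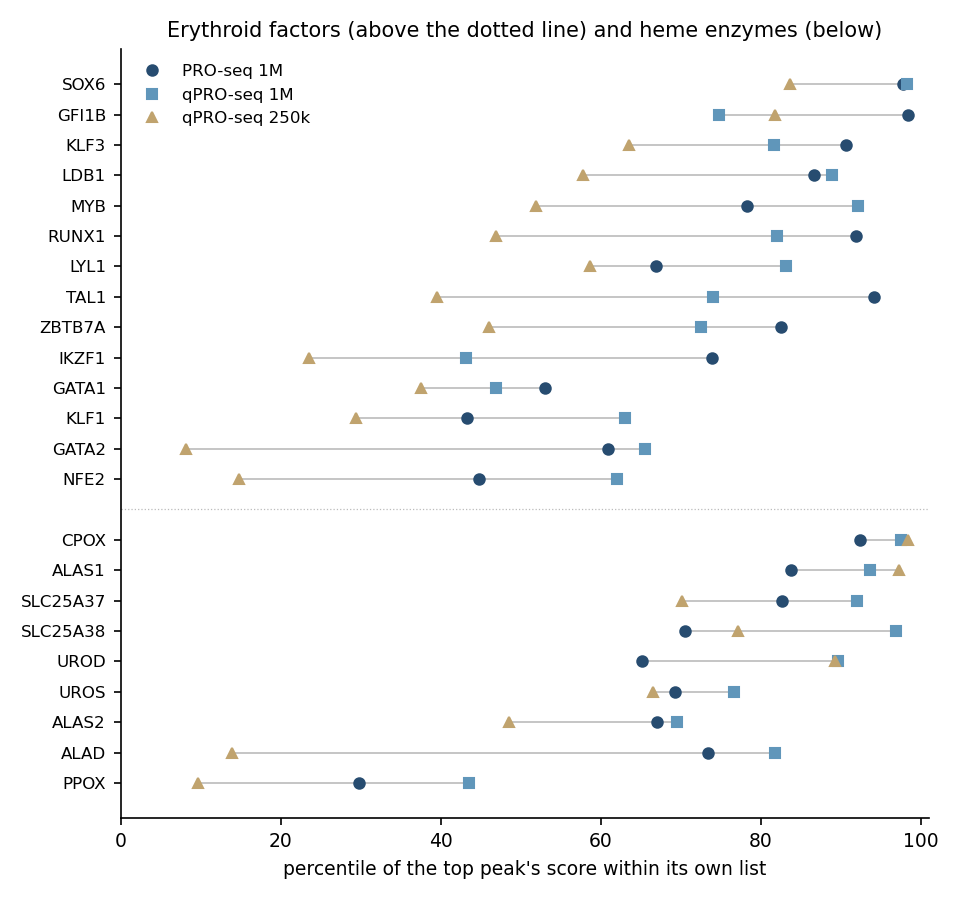
Percentile of the top start peak within its own list (0 to 100) for called erythroid factors and heme synthesis genes, with 1 point per list. Each gene is drawn at its called region with the highest region score. GATA1, at 53.1, 46.9 and 37.5, lies below SOX6 in all 3 lists. SOX6, at 97.7, 98.2 and 83.6, shares its region with the C11orf58 start. PPOX lies below CPOX in all 3 lists.

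Globin genes had 4 of 10 called. The region with the highest rank, chr11:5505251-5506010 with percentiles of 92.0, 96.3 and 90.7, lies at the far upstream start that the annotation gives to long transcripts of HBE1 and HBG2 and of the olfactory receptor gene OR51B5, away from the globin genes themselves. HBG2 was counted as called through this far upstream region alone. HBE1 also has a second called region, chr11:5269701-5270450, near another of its annotated starts, with percentiles of 47.3, 47.8 and 4.27. HBG1, a fetal globin gene, had 16.0, 67.0 and 17.2 at chr11:5249851-5250580. HBZ, the embryonic alpha-like globin gene, had 2.34, 31.8 and 20.7. Both were ranked higher in qPRO-seq 1M than in the other lists. The median over all 11852 regions was also highest there, at 82.1 against 74.1 in PRO-seq 1M and 59.6 in qPRO-seq 250k. HBD was called in both quick lists only, HBM in qPRO-seq 1M alone, and HBA1, HBA2, HBB and HBQ1 in none. HBG1 with HBG2, and HBA1 with HBA2, are near-identical copies, so that their calls are uncertain.

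Membrane and iron genes of the red cell had 12 of 20 called. TFRC, the transferrin receptor, had 91.5, 91.7 and 90.2. The iron exporter SLC40A1 and the glucose carrier SLC2A1 both had a region score of 94.9, and FTH1, the heavy chain of ferritin, had 93.7. SLC4A1, the anion exchanger band 3, had no region. Among 17 genes of BCR-ABL1 signalling, 13 were called. The adaptor gene CRKL had 95.2, MYC had percentiles of 84.8, 89.8 and 97.0, and BCR had a region score of 78.9. ABL1 had no start region in any list.

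Markers of other tissues were rarely called. Liver markers had 0 of 15 genes called, keratin-associated proteins 0 of 94, and olfactory receptors 1 of 386, which was OR51B5 through the shared region above. Neuronal markers had 2 of 15. GAD1, an enzyme of GABA synthesis, had percentiles of 98.1, 96.5 and 91.2, and DLG4 shares its region with the ACADVL start. HOX genes had 3 of 39 called, namely HOXB9, HOXC6 and HOXC9.

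The labels call K562 lymphoblastoid, and both lymphoid and myeloid markers were rarely called. Their lists were chosen with results of these data known, and whether the counts fit the label was not tested. Of 18 lymphoid markers, 2 were called, and both through a region that also lies at another gene, as RAG1 does with TRAF6. Of 15 myeloid markers, only SPI1, the gene of the factor PU.1, was called, with 99.7, 98.8 and 80.2.

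Numbered zinc finger genes, most of which encode repressors of repeat elements, had 265 of 509 called. Those on chromosome 19, where they form clusters of similar copies, had 106 of 246 called (43.1%). On other chromosomes 159 of 263 were called (60.5%), a difference of 17.4 points (8.69 to 25.7).

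Promoter sequence was described over RefSeq windows of 300 bases, from 250 before to 50 after each start. Regions called in all lists overlapped 9773 of 34961 windows (28.0%). Their GC content had a median of 66.3%, against 67.7% for windows at regions of both 1M lists only, 59.3% at regions of qPRO-seq 1M alone and 51.7% at no region. The observed to expected ratio of CpG had medians of 0.875, 0.813, 0.649 and 0.300 in the same order. Windows of all 3 lists and of both 1M lists were thus alike in GC content, and the CpG ratio was highest in the former.

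Of the 17 motifs searched, each compared with both classes without adjustment for their number, the ETS motif differed most. It was in 22.9% of windows at regions of all lists, 13.9% at regions of both 1M lists only and 10.3% of all windows. The difference of 9.05 points (7.20 to 10.8) was 8.50, 10.4 and 7.28 points within the low, middle and high GC groups. NRF1 was in 6.79% against 4.70% (difference 2.09, 0.920 to 3.11; 3.06% of all windows), CRE in 3.93% against 1.97% (1.96, 1.13 to 2.64; 1.85% of all), and the CGCG element in 2.58% against 1.37% (1.21, 0.504 to 1.76; 1.02% of all). YY1 was in 4.73% against 2.90% (1.83, 0.868 to 2.64; 1.76% of all). When only the 200 bases before the start were searched, that difference was 0.411 points with an interval that included 0 (−0.181 to 0.838). The GC groups did not all show these differences. In the low GC group, which held 563 windows of all lists, NRF1 differed by −1.08 points (−5.21 to 1.45), CRE by −0.427 (−4.11 to 1.67), YY1 by −0.667 (−4.59 to 1.67) and the CGCG element by 0.0529 (−3.06 to 1.61). In the middle and high GC groups the NRF1, CRE and YY1 differences were all above 0, with intervals that excluded 0, as that of the CGCG element did in the high group only. LAMTOR1, RAPGEF6, ZDHHC7 and MED18, printed above, carry these motifs.

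Other motifs were less frequent at these regions than in a compared class. GATA was in 4.14% of their windows, 10.8% of those at regions of qPRO-seq 1M alone (difference −6.65 points, −8.95 to −4.70) and 10.3% of all windows. Against both 1M lists only, at 5.14%, the difference of −0.995 points had an interval that included 0 (−2.17 to 0.0144). The interval excluded 0 when 200 bases were searched (−0.955, −1.93 to −0.150), with peaks of p at most 0.01 (−1.06, −2.16 to −0.101) and in the low GC group (−7.76, −15.2 to −1.18). It included 0 in the middle GC group (difference −1.16) and in the high GC group, where the difference was above 0 (0.359). The interval also included 0 with protein-coding genes only (difference −0.843) and with 1 promoter per gene (−1.11). ALAS2 is thus in the minority of called promoters with this motif. The SP motif (GGGGCGGGG) went in opposite directions: 28.4% was 5.25 points below the 33.6% of both 1M lists only (difference −5.25, −7.62 to −2.94) and 10.1 points above the 18.3% of qPRO-seq 1M alone (7.19 to 12.7). The lower share against both 1M lists was seen in the high GC group (−8.68, −11.9 to −5.47) and not in the low (1.59, −1.95 to 3.77) or middle group (0.911, −2.49 to 3.90). The TATA box (TATAAA) was in 4.36%, against 4.59% and 9.74%, and in 11.5% of all windows. The AP-1 motif (TGANTCA) was in 3.76%, against 4.70% and 8.69%. No motif difference from qPRO-seq 1M alone was split by GC content. Windows of that class had a median GC content of 59.3%, against 66.3% at regions of all lists. The CACCC motif (CCACACCC), bound by KLF1 and related factors, was in 2.87% against 3.94% at both 1M lists only (−1.07, −2.11 to −0.199), and that interval included 0 with 1 promoter per gene (−0.551, −1.68 to 0.353) and with p at most 0.01 (−0.0723, −0.949 to 0.670). The remaining motifs in the plot of motif differences were searched as CCAATCA (NFY), AGGGGGC (CTCF), TGTGGTT (RUNX), TTCNNNGAA (STAT), GAGGAAGT (PU.1) and GCTGAGTCA (MAF/NFE2), the last of which holds an AP-1 motif.

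**Figure D5:**
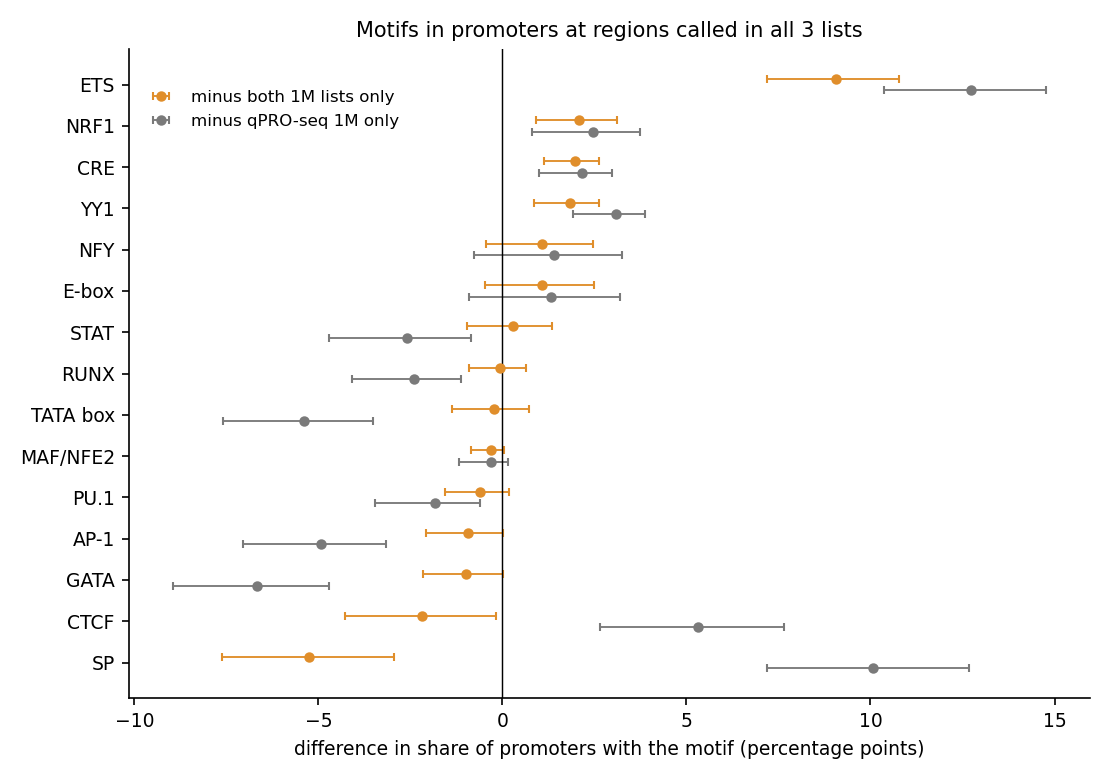
Difference in the share of 300-base promoter windows holding each motif drawn (percentage points, with 95% Newcombe intervals), for windows at regions of all 3 lists minus those of both 1M lists only and minus those of qPRO-seq 1M only. The CGCG element and the CACCC motif are not drawn. ETS lies at 9.05 and 12.7, whereas SP lies at −5.25 against the first class and at 10.1 against the other.

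The 2739 distal regions were close to genes. The median distance to the nearest annotated start was 6967 bp, with 59.5% of regions within 10 kb, 32.9% at 10 to 50 kb and 7.56% farther. Regions of both 1M lists only had 60.2%, 33.0% and 6.81%, and the intervals of all 3 differences included 0 (for the first, −0.694 points, −3.22 to 1.83). A total of 1376 distal regions (50.2%) had no other of their kind within 100 kb.

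The distal region with the highest score was intergenic, at chr10:72320601-72321160, 15705 bp from the start of DNAJB12, a chaperone gene. The next were chr11:9363921-9364790, 19832 bp from the nuclear import receptor gene IPO7, and chr1:181152601-181153510, 63889 bp from IER5. The fourth lay in an intron of CADM2 at chr3:85503731-85505420, the fifth in an intron of SPEN at chr1:15885701-15886780. The sixth, chr6:27505511-27506280, lies at the tRNA gene TRS-TGA4-1, a kind of gene that the list of starts did not hold.

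Distal regions at tRNA genes were then counted against RefSeq, a count added after the values were seen. RNA polymerase III transcribes these genes. Of the distal regions, 142 (5.18%, 4.42 to 6.08) lay within 500 bp of a tRNA gene. The share was 1.24% for both 1M lists only (difference 3.95 points, 3.05 to 4.90) and 0.523% for qPRO-seq 1M alone (4.66 points, 3.87 to 5.57). With start-near regions included, 221 of 443 tRNA genes (49.9%) had a region called in all lists within 500 bp. The 3 densest groups of distal regions all held tRNA genes. On chr6:27531881-27631780, 12 of 13 distal regions were near one. On chr6:27668331-27754520 it was 8 of 10, and on chr14:20613311-20683020 it was 9 of 9. tRNA genes are repeated copies, so the assignment of reads to them is uncertain.

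Distal regions within 100 kb of a gene were counted at genes of the lineage. Of all 16938 distal regions of any class, 16.2% were called in all lists, and 71.3% of all protein-coding genes had no distal region of all lists within 100 kb, while 0.906% had 5 or more. PIM1, a kinase gene induced by STAT5, had 5, of which chr6:37109631-37110750, had a region score of 95.4 at an offset of −60123 bp from its start (negative offsets are upstream). JUN had 3, with the highest at 96.9 in chr1:58815811-58816740, at −32093 bp. Another of the 3, chr1:58815161-58815810, touches it without overlap, so that the joining rule counted them apart. TFRC and MYB had 3 each, and GATA2 had 4 with region scores of 30.3 to 65.9. Genes whose own start was not called could still have such regions: CBFA2T3 had 5 (25.6 to 75.4) and LMO2 had 2, the higher at 79.4 in chr11:33936681-33937930, at −45141 bp. MYC had 1 at 80.6. GATA1, TAL1, GFI1B, ALAS2, EPOR and BCR had none called in all lists, as had most genes, although they had 5, 7, 5, 3, 4 and 1 distal regions of other classes. PIM1 had 13 of other classes beside its 5, JUN 4, TFRC 8 and GATA2 7. Distance alone assigned these regions to genes, and whether they act on them was not tested.

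A large gap lay on the short arm of chromosome 6, chosen for a closer count after the values were seen. Between 29 and 33 Mb, 0 of 154 protein-coding genes were called (0%, Wilson upper bound 2.43%), and 152 had no region of any class. On the rest of the chromosome 425 of 890 genes were called (47.8%). In the same order of lists, the window held 0, 3 and 0 peaks, against 1451, 2355 and 998 on the rest of chromosome 6. The alternate scaffolds of chromosome 6 held 25, 66 and 16 peaks. Several listed genes above without a region lie inside it, namely IER3, VARS, HSPA1A and HSPA1B. Other uncalled genes of the lists counted above lie there too. Inside it are 3 heat shock genes in all and 14 olfactory receptor genes. The initiation, chromatin, mitochondrial ribosomal and numbered zinc finger lists have 1 gene each there. The lack of a call at these genes therefore cannot be told apart from the lack of nearly all peaks in this window. The cause of the gap was not tested.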

How the data were processed

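Transcription was measured by run-on sequencing in 6 K562 libraries, 3 groups of 2. The submitters' processing notes name fastp 0.20.0, Bowtie2 2.3.5.1, UMI-tools and deepTools 3.1.3, with builds hg38 and GRCh38. Per the labels, each group has 1 list of dREG peaks. The settings and version of dREG and any pooling of replicates are not given in the sources used here. Peak scores, which have no stated unit, are as the authors deposited them. The deposited p-value of each peak was used only as a filter. It was exactly 0 for 19.6% of peaks in PRO-seq 1M, 21.1% in qPRO-seq 1M and 12.4% in qPRO-seq 250k. Some of these peaks had low scores, as those of the 1M lists at GUSB, and the filter kept them. Positions of start, end and centre are also as deposited, counted from 0, and are printed here counted from 1.

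Peaks were joined, placed on GENCODE 29 (GRCh38) and compared with Python 3.11.15, numpy 2.4.6, pandas 2.3.3, scipy 1.17.1 and matplotlib 3.10.9. The joining and the intervals were tested on simulated data. The simulated sites lay far apart and held at most 1 peak per list. Regions of several peaks and the counts of genes, tRNA genes and motifs were not covered. A call is the presence of a region near any annotated start of a gene. Promoter windows came from RefSeq (GRCh38.p14); they replaced windows of the peaks themselves, since no genome sequence was used here. Several windows can belong to 1 gene. Regions were named as the 10 highest start-near and distal, the 5 lowest and the 3 widest by region score, width or peak count, and genes from the lists, a few of which are counted but not reported here by name. Sequences are exon-free stretches of 150 bases. The regions, gene lists and motifs were chosen with earlier results of these data known. No test between groups was possible with 1 list per group, and no p-value was computed. Alternatives covered the p limit, joining rules, list length, score, start window and motif window.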

Additional observations from a re-analysis of the deposited data

Results flagged for a closer look

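A further 20 regions with a peak in all 3 lists lay on sequences other than chromosomes 1 to 22 and X, which the comparisons did not use. They were 20 of 238 joined regions there (8.40%). Alternate scaffolds held 12 of 158, unplaced or unlocalized scaffolds 7 of 75, the mitochondrial genome 1 of 4 and chromosome Y 0 of 1. The series has no control samples for them, and the assignment of reads to alternate copies was not tested.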

How the results depend on the processing

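With touching peaks joined as well, 11669 of 33701 regions were called in all lists. The share of joined regions, 34.5% as reported, was 33.8% with p at most 0.01, 40.8% with peaks merged within 500 bp, 37.3% with joining up to 20 bp, 29.5% with overlap of 50% of both peaks, 26.8% with centres within 100 bp, 49.0% with lists of equal length and 35.5% (6560 regions) with peaks at or above the median score. The start-near share, 76.9% as reported, was 79.8% with the p limit, 78.0% with 50% overlap, 77.7% with centres, 80.5% with equal lengths, 85.4% at the median score, 79.9% with a window of 1000 bp and 71.0% with protein-coding starts only. Added after seeing the data, tRNA genes as starts gave 78.1% and the centre of the top qPRO-seq 1M peak alone gave 72.3%. The share of genes called, 43.2% as reported, was 39.2%, 38.4%, 35.3%, 37.8% and 29.5% under the first 5 of these settings and 43.9% with 1000 bp. The start-near difference from both 1M lists only was 24.1 points with the p limit, 33.9 with merging, 21.6 with 1000 bp, 28.5 within deciles and 29.3 by centre. That from qPRO-seq 1M alone was 60.4 with merging, 53.2 with equal lengths, 43.0 with 1000 bp and 51.9 by centre. No share or start-near difference reversed. Of the motif differences, 5 took the other sign under an alternative, none of them among those whose reported interval excludes 0: CACCC against qPRO-seq 1M alone went from 0.0481 to −0.246 (protein-coding genes), −0.251 (1 promoter per gene) and −0.603 (p limit), STAT against both 1M lists from 0.276 to −0.458 (200 bases), and TATA from −0.234 to 0.192 (1 promoter per gene). In 11 cases an interval that excluded 0 came to include it, for YY1, CACCC, CTCF, the CGCG element and PU.1. Of 250 gene list counts, 13 moved by over 1.5 times. The GATA difference from qPRO-seq 1M alone was −4.45 points, and that of AP-1 was −2.46, with protein-coding genes only; the YY1 difference from the same class was 0.519 with 200 bases.

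No paired analysis was possible because each group has 1 list and no value per replicate. Replicates were left out in no setting, since the lists do not separate them. Planned motif searches in the peaks themselves were not run. Depth is unknown, so a longer list cannot be told apart from a deeper library.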

Other observations

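The share of joined regions called in all lists ran from 38.1% on chromosome 19 to 28.8% on chromosome 21. Protein-coding genes on chromosome X were called in 29.9% of cases. Among windows of 4 Mb with at least 50 protein-coding genes, the one at 53 to 57 Mb of chromosome 11 also had 0 of 51 called, and the one at 35 to 39 Mb of chromosome 17 had 4 of 77. Within the called promoters, the share with an ETS motif was 18.6% in the lowest decile of region score and 29.8% in the highest, while the SP motif went from 31.1% to 24.1%. These are descriptions of ranks that share their lists with the rule.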
